A study of Tigriopus californicus with 9 samples.

Results

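The genes described here carry protein names of the cell division machinery: DNA replication factors, DNA polymerases, core histones, cyclins and their kinases, cohesin and condensin, kinetochore and spindle proteins, and the mitotic checkpoint. They were picked by words in the deposited protein name, and 123 of 13758 features matched. A further name matched but was left out because it also held a word for methylation, acetylation or repair. By name alone, 107 of the 123 fall into roles of replication, the cell cycle or related kinases, 8 are reverse transcriptases of mobile elements caught by the words DNA polymerase, and 8 belong elsewhere, such as a tetracycline resistance protein and the germline helicase spindle-E.

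The source is the intertidal copepod Tigriopus californicus, in which polyA RNA was sequenced from 9 pools of 400 to 500 whole animals of mixed stages, held in a bath at 20 °C for 2 h. The San Diego population (SD) gave 3 libraries and the Santa Cruz population (SCN) gave 2. Another 2 libraries came from hybrids with SD mothers and SCN fathers (SDf x SCNm) and 2 from the reciprocal cross (SCNf x SDm), with hybrids mated among themselves up to the third generation. The source label of both SCNf x SDm libraries gives the reverse cross; their titles were followed here.

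Before a cell divides, the MCM helicase is loaded onto replication origins in G1, and the polymerases alpha, delta and epsilon copy the DNA in S phase while new histones package it. Cyclins that bind cyclin-dependent kinases drive each step, cohesin and condensin hold and compact the chromosomes, and the kinetochore couples them to spindle microtubules under the watch of a checkpoint. In small crustaceans, the germ line, embryos and growing juveniles hold many of the dividing cells. In a pool of whole animals, fewer cells of a dividing type and less RNA per cell cannot be told apart.

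Levels are in RPKM (reads scaled to contig length and to library size) and differences are in log2(RPKM + 1). The depth, in reads recovered from the deposited values, ran from 0.966 M in SD replicate 3 to 17.0 M in SD replicate 1. All 123 genes had a mean of at least 1 RPKM. The median number of reads per gene of the group was 49 in SD replicate 3 and 55 in SCN replicate 2, against 145 to 823 in the other 7 libraries. These 2 shallow libraries shared sequencing run 3, with 7.55% and 8.19% of all features at 0 reads. SCN replicate 2 alone had a low median over all features, 16.3 RPKM against 23.4 to 26.7 RPKM in the other libraries. Run 1 held SD replicate 1 with SCN replicate 1, run 2 held SD replicate 2, run 4 held SDf x SCNm replicate 1 and run 5 held the remaining hybrid libraries. Hybrid status and run therefore cannot be told apart. Whether replicates of a group were grown apart is not stated in the labels, and a p-value then reflects the spread among these pools alone, which may be technical.

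The parental comparison asks how the populations differ. The contigs are named after SD contigs, and whether SCN or hybrid reads match them less well was not tested. With limma and an adjusted p below 0.05, 0 of the 123 genes were called, beside 59 of all 13758 features (0.429%). Before adjustment, p was below 0.05 for 34 of the genes, which is 27.6% beside 17.5% of all features. Of these, 30 were higher in SD (24.4% beside 12.3% of all features) and 4 lower (3.25% beside 5.25%). The populations were apart in 52 genes (42.3% beside 29%). In 47 of them every SD library lay above both SCN libraries, which is 38.2% beside 19.8% of all features, and in 5 every SD library lay below both, which is 4.07% beside 9.17%. The difference was above 0 in 97 of the genes, or 78.9% beside 62.5% of all features, with a median of 0.59 over the genes and 0.23 over all features. A voom fit on recovered reads, which held 120 of the 123 genes, also called 0 of them. On simulated data the fit found few moderate changes between the populations or between the crosses, so that 0 calls there do not show that levels were equal. Leaving out either SCN library left SCN with 1 library, assumed to vary like the other groups. How the genes stood beside all features depended on which library was kept. Without SCN replicate 1 the median was 0.44 over the genes and 0.51 over all features. Without SCN replicate 2 the medians were 0.50 and -0.03.

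The median level of most roles was higher in SD. Over the 18 cyclins and kinases of the cell cycle, the library medians were 53.9 to 98.1 RPKM in SD and 34.5 to 41.1 RPKM in SCN, without overlap. The spindle and gamma-tubulin genes had medians of 34.7 to 38.5 RPKM in SD and 17.8 to 23.9 RPKM in SCN. The core histones, the cohesin and condensin genes and the kinetochore genes overlapped between the populations. Within run 1 the SD library exceeded the SCN library by a median of 0.53 over the 123 genes and 0.02 over all features, and within run 3 by 0.44 and 0.46. Under quantile normalization 92 of the 123 genes and 7158 of all features were higher in SD. Under median-of-ratios scaling of the libraries these were 82 and 6680. By role that scaling gave 8 of 9 spindle, 7 of 11 kinetochore, 7 of 9 checkpoint and 5 of 6 cohesin and condensin genes.

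**Figure D1:**
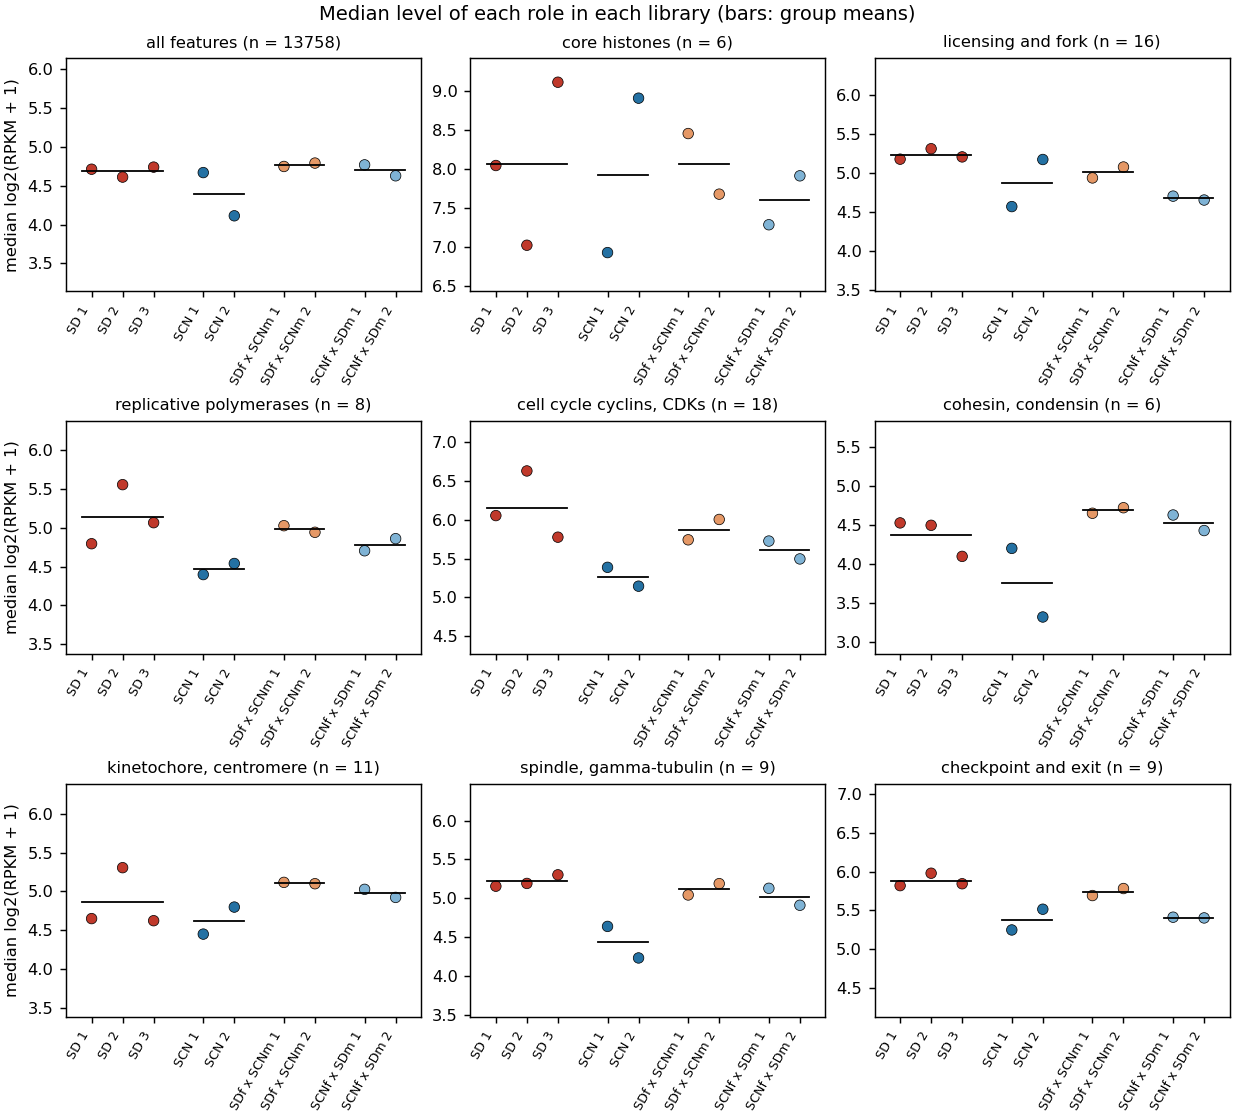
Median log2(RPKM + 1) over the genes of each role (y axis) in each of the 9 libraries (x axis), with bars for the group means; the y axes span the same width but start at different levels. SD libraries lie above both SCN libraries for the cell cycle cyclins and kinases, the polymerases, the spindle genes and the checkpoint genes. The same holds by a very small margin for the licensing and fork genes. The core histones spread most between replicates.

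The germline list differed between the same groups in its summed level. The summed level of the 19 genes of the germline list was 3235 to 3860 RPKM in SD, 2106 to 2661 RPKM in SCN, 2295 to 2403 RPKM in SDf x SCNm and 1689 to 1925 RPKM in SCNf x SDm, and 0 of the 19 were without reads in any library. The median log2(RPKM + 1) of the list was also apart between the populations, at 5.68 to 5.70 in SD and 4.96 to 5.33 in SCN, but overlapped between the crosses, at 5.20 to 5.67 and 4.81 to 5.41. Markers of cuticle and moult, 71 genes, were apart between hybrids and parents, with summed levels of 27275 to 45821 RPKM in hybrids and 9559 to 22552 RPKM in parents and medians of 6.06 to 6.34 and 3.92 to 5.98. Of these genes 17 were at 0 reads in SD replicate 3 and 9 in SCN replicate 2. The summed yolk, sperm, muscle and nerve markers overlapped between the populations and between hybrids and parents. Between the crosses the cuticle and muscle sums were lower in SDf x SCNm and the sperm sum was higher (1262 to 1302 against 1224 to 1230 RPKM), without overlap. The medians of these lists overlapped between SDf x SCNm and SCNf x SDm. They were 6.09 to 6.14 and 6.06 to 6.34 for cuticle, and 6.43 to 6.51 and 6.36 to 6.63 for muscle. For sperm they were 3.22 to 3.38 and 3.16 to 3.45. The part of these markers in the results was not tested.

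Hybrids were compared with the average of both parental means on the log2 scale, called the midparent, to ask whether the hybrid level leaves the parental average. Here too 0 of the 123 genes were called by limma, beside 110 of all features (0.8%). Before adjustment, p was below 0.05 for 14 genes, which is 11.4% beside 16.5% of all features. Of these, 9 were higher in hybrids (7.32% beside 13.1%) and 5 lower (4.07% beside 3.4%). In 7 genes, 5.69% beside 7.36% of all features, the hybrids were apart from the parents, with 6 higher in hybrids (4.88% beside 5.86%) and 1 lower (0.813% beside 1.5%). The difference was above 0 in 63 of the genes, or 51.2% beside 62.1%. Its median was 0.01 over the genes and 0.15 over all features, and under median-of-ratios scaling of the libraries these became -0.15 and 0.00. The hybrid mean lay between the parental means in 68 genes (55.3% beside 40% of all features), above both in 29 (23.6% beside 39.6%) and below both in 26 (21.1% beside 20.4%). The voom fit called 1 gene, the histone H2B of Contig15437. Without SCN replicate 1, which left SCN with 1 library, the median was -0.02 over the genes and 0.31 over all features.

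The reciprocal crosses share their nuclear parents and differ in which population gave the mothers, and so the mitochondria. Limma called 0 of the 123 genes and 0 of all features (0%), voom called 0 of the genes, and unadjusted p was below 0.05 for 0 of the genes and 39 features (0.283%). The libraries of the crosses did not overlap in 52 genes (42.3% beside 28.7% of all features), and in 48 of these both SDf x SCNm libraries were the higher, which is 39% beside 16.3% of all features. The other 4, at 3.25% beside 12.5%, were lower. The difference was above 0 in 104 of the 123 genes, or 84.6% beside 56.7% of all features. Its median was small, 0.22 beside 0.05 over all features, and within run 5, which holds SDf x SCNm replicate 2 and both libraries of the other cross, it was 0.23 beside 0.05. Not one of these differences passed the test.

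**Figure D2:**
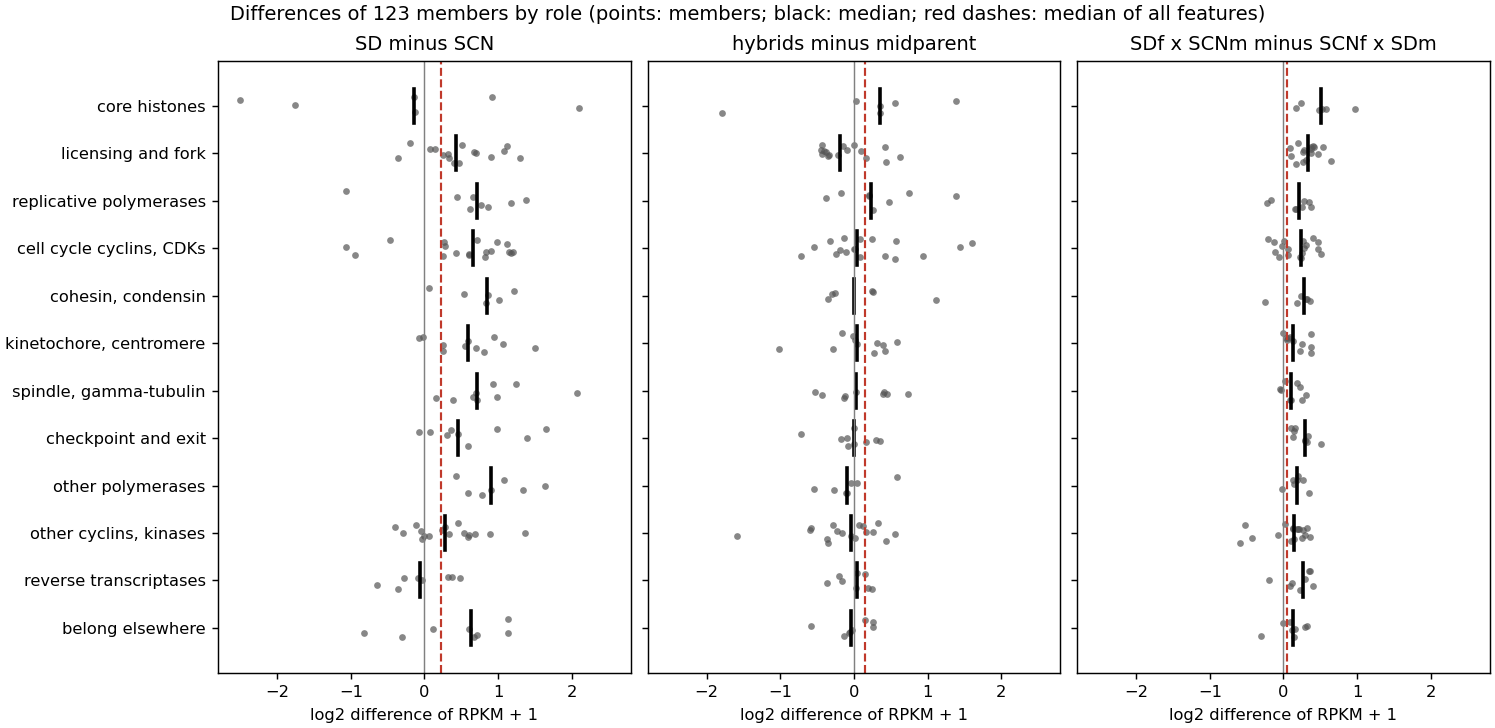
Log2 difference of RPKM + 1 (x axis) of each of the 123 genes by role (y axis) in 3 comparisons, with a black bar for the median of the role and a red dashed line for the median of all features. The role medians lie right of 0 in SD minus SCN except for core histones and reverse transcriptases, on both sides of 0 in hybrids minus midparent, and right of 0 in every role between the crosses.

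The MCM2-7 helicase is a ring of 6 different subunits that unwinds DNA at the fork, and all 6 were found. Within a library the highest subunit was 1.39 to 3.10 times the lowest in RPKM. The mcm2 contig stood at 51.9, 51.2 and 59.8 RPKM in SD, 31.7 and 44.7 RPKM in SCN, 42.8 and 42.1 RPKM in SDf x SCNm, and 36.5 and 33.8 RPKM in SCNf x SDm. The mcm7 contig stood at 62.4, 68.4 and 58.1 RPKM in SD, 30.5 and 47.6 RPKM in SCN, 52.5 and 39.4 RPKM in SDf x SCNm, and 33.7 and 31.5 RPKM in SCNf x SDm. In both subunits the 3 SD libraries were highest, apart from SCN, and the crosses did not overlap.

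The mcm4 contig gave 68.4, 91.9 and 48.2 RPKM in SD against 24.95 and 28.6 RPKM in SCN, with 27.2 and 48.3 RPKM in SDf x SCNm and 37.4 and 24.0 RPKM in SCNf x SDm. Its parental difference was the largest of the 6, at 1.30 ± 0.41 (SE, adjusted p = 0.17 with limma), while its crosses overlapped. The mcm3 contig, like mcm2 and mcm7, had all SD libraries (39.3 to 56.7 RPKM) above SCN (23.1 and 36.8 RPKM). For mcm5 and mcm6 the populations overlapped, because SCN replicate 2 was the highest of all 9 libraries, at 38.5 and 50.2 RPKM. The mcm5 difference of 0.07 turned to -0.10 under quantile normalization and -0.21 under median-of-ratios scaling.

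**Figure D3:**
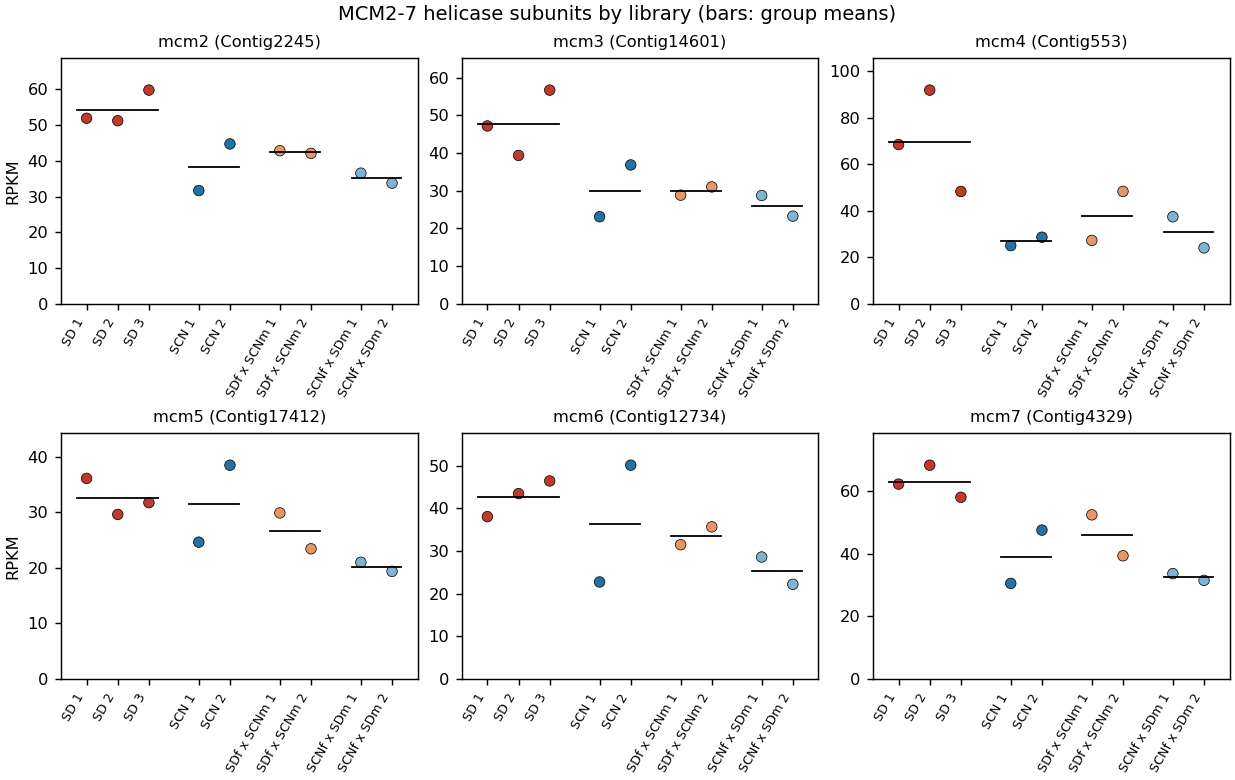
RPKM (y axis, from 0) of the 6 MCM2-7 subunits in each of the 9 libraries (x axis), with bars for group means. The 3 SD libraries lie above both SCN libraries for mcm2, mcm3, mcm4 and mcm7, and SCN replicate 2 is the highest library for mcm5 and mcm6.

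The other licensing and fork proteins load or fire the helicase. Cdc6 (Contig10125), which helps load MCM at origins, was at 51.9, 80.2 and 46.5 RPKM in SD, 26.6 and 27.1 RPKM in SCN, 47.5 and 48.0 RPKM in SDf x SCNm, and 34.3 and 30.9 RPKM in SCNf x SDm. Both SCN libraries were lowest and the 2 crosses were apart, with SDf x SCNm near the SD libraries (SD minus SCN 1.08 ± 0.34, adjusted p = 0.17, and between crosses 0.54 ± 0.37, adjusted p = 1.00, both with limma). The Cdc7-related kinase (Contig3432), whose relatives activate the loaded helicase, had 58.0, 74.5 and 59.0 RPKM in SD, 20.0 and 40.5 RPKM in SCN, 40.8 and 47.6 RPKM in SDf x SCNm, and 37.9 and 34.6 RPKM in SCNf x SDm. SD was highest and apart from all other groups. The GINS subunit Sld5 (Contig19732), part of the active helicase, had 52.5 and 37.8 RPKM in SDf x SCNm against 24.7 and 31.8 RPKM in SCNf x SDm, a difference of 0.65 ± 0.47 (SE, adjusted p = 1.00 with limma). Of the 16 licensing and fork genes, 14 were higher in SD (62.5% of all features) and 2 higher in SCN by fitted difference, and 16 of 16 were higher in SDf x SCNm than in SCNf x SDm, with 12 of them apart (56.7% and 16.3% of all features). The role median between the crosses was 0.33, or 0.30 and 0.31 under the other scalings. For SD minus SCN the role median was 0.43, beside 0.23 over all features. Under quantile normalization it was 0.21 beside 0.03, with 12 of the 16 above 0. Under median-of-ratios scaling it was 0.17 beside -0.02, with 11 above 0. Without SCN replicate 1 it was 0.30 beside 0.51. Against the midparent 11 of the 16 lay below 0, with a median of -0.19, and 0 had an unadjusted p below 0.05.

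Among the 8 genes of the replicative polymerases, delta subunit 2 (Contig1989) ranged from 19.4 RPKM in SCN replicate 1 to 52.9 RPKM in SD replicate 2, with the populations overlapping. The catalytic subunit of polymerase alpha, which starts new strands, was at 41.0, 61.0 and 37.9 RPKM in SD and 20.8 and 18.5 RPKM in SCN. The hybrid libraries held 21.8 and 31.5 RPKM in SDf x SCNm and 25.7 and 15.5 RPKM in SCNf x SDm. SD was apart from SCN by 1.18 ± 0.38 (SE, adjusted p = 0.17 with limma), with hybrid libraries overlapping SCN. The polymerase epsilon subunit 3 (Contig12813), a small accessory subunit of the leading strand enzyme, behaved otherwise, with 39.1, 124 and 28.8 RPKM in SD, 43.9 and 33.2 RPKM in SCN, 121 and 128 RPKM in SDf x SCNm, and 120 and 104 RPKM in SCNf x SDm. Every hybrid library lay near SD replicate 2 and far above the other 4 parental libraries. Its hybrid difference was 1.39 ± 0.40 (adjusted p = 0.14 with limma), and adjusted p was 0.037 without SD replicate 2.

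A further epsilon subunit, subunit 4-like (Contig9295), had all hybrid libraries (45.4 to 64.6 RPKM) above all parental ones (15.5 to 40.7 RPKM). Subunit 2 of the same enzyme (Contig9809) was the replicative polymerase gene with SD apart below SCN, at 10.6 to 17.2 RPKM against 24.1 and 40.9 RPKM. Subunits named for polymerase epsilon were thus high in different groups. All 7 of the other polymerases, among them those of lesion bypass and of mitochondrial DNA, were higher in SD by fitted difference, and 5 were apart (62.5% and 19.8% of all features). Polymerases eta (Contig2812) and iota (Contig391cap), which copy past damaged bases, had 60.4 to 64.2 RPKM and 53.9 to 67.0 RPKM in SD against 30.8 to 34.6 RPKM and 30.5 to 42.0 RPKM in SCN. Both were apart, while the polymerase V-like contig (Contig939cap), with 30.2 to 107 RPKM, overlapped. The polymerase zeta contig Contig9937, the catalytic subunit of a lesion bypass enzyme, had 30.5, 40.6 and 23.4 RPKM in SD, 9.02 and 9.46 RPKM in SCN and 23.2 to 29.6 RPKM in hybrids, so that only the SCN libraries were low (1.63 ± 0.35, adjusted p = 0.082 with limma). A longer zeta contig (Contig11795) had 1.34 ± 0.48.

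Core histones form the protein spool of the nucleosome, and 6 contigs carried such names: 2 of H4, 3 of H2A and 1 of H2B. In animals most histone mRNA made in S phase lacks a polyA tail, so that polyA RNA may hold only some of it. Copies of 1 histone can be nearly identical, with the sharing of reads among them not given in the sources used here. H4 was the most abundant gene of the whole group: Contig1001 stood at 2643, 10893 and 2531 RPKM in SD, 1020 and 4751 RPKM in SCN, 6584 and 3412 RPKM in SDf x SCNm, and 2275 and 4435 RPKM in SCNf x SDm. Replicates of each group differed about as much as the groups did, and all groups overlapped.

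The partial H4 contig, Contig20625, covers 123 bases. It stood at 159, 90.1 and 672 RPKM in SD, 533 and 2779 RPKM in SCN, 329 and 130 RPKM in SDf x SCNm, and 85.9 and 127 RPKM in SCNf x SDm. It made up 34.3% and 36.9% of the summed H4 level in the SCN libraries, 0.82% to 21.0% in SD and 2.78% to 4.75% in the hybrids. SCN was thus the group with the largest share, and SD replicate 3, of the same run as SCN replicate 2, came next. The difference was -2.51 ± 0.88 for SD minus SCN (SE, adjusted p = 0.20) and -1.79 ± 0.65 for hybrids minus midparent (adjusted p = 0.21), both with limma.

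The H2A contig Contig2816 and the H2B contig lay in opposite directions between the populations. Contig2816 gave 522, 605 and 522 RPKM in SD, 88.2 and 185 RPKM in SCN, 512 and 320 RPKM in SDf x SCNm, and 227 and 348 RPKM in SCNf x SDm. SCN was lowest and SD highest, with all hybrid libraries between them. Its difference of 2.09 ± 0.42 was the largest in favour of SD among the 123 genes (SE, adjusted p = 0.069 with limma), 2.55 within run 1 and 1.49 within run 3. The H2B contig, of 140 bases and as few as 4 reads in a library, gave 16.5, 20.3 and 36.4 RPKM in SD, 65.0 and 99.2 RPKM in SCN, 150 and 124 RPKM in SDf x SCNm, and 94.4 and 99.7 RPKM in SCNf x SDm. All SD libraries were lower than every other library, and the hybrids overlapped or exceeded SCN. SD minus SCN was -1.76 ± 0.39 (adjusted p = 0.09) and hybrids minus midparent 1.39 ± 0.29 (adjusted p = 0.065), both with limma. The hybrid difference of H2B passed the threshold with limma under pseudocount 5 and quantile normalization (adjusted p of 0.047 and 0.038). It also passed with voom (0.047), and in 15 of its 20 alternatives it did not pass. The other H2A contigs, Contig7095 and Contig1866cap, ranged from 164 to 951 RPKM and from 40.9 to 243 RPKM, highest in SCN replicate 2 and overlapping between populations.

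**Figure D4:**
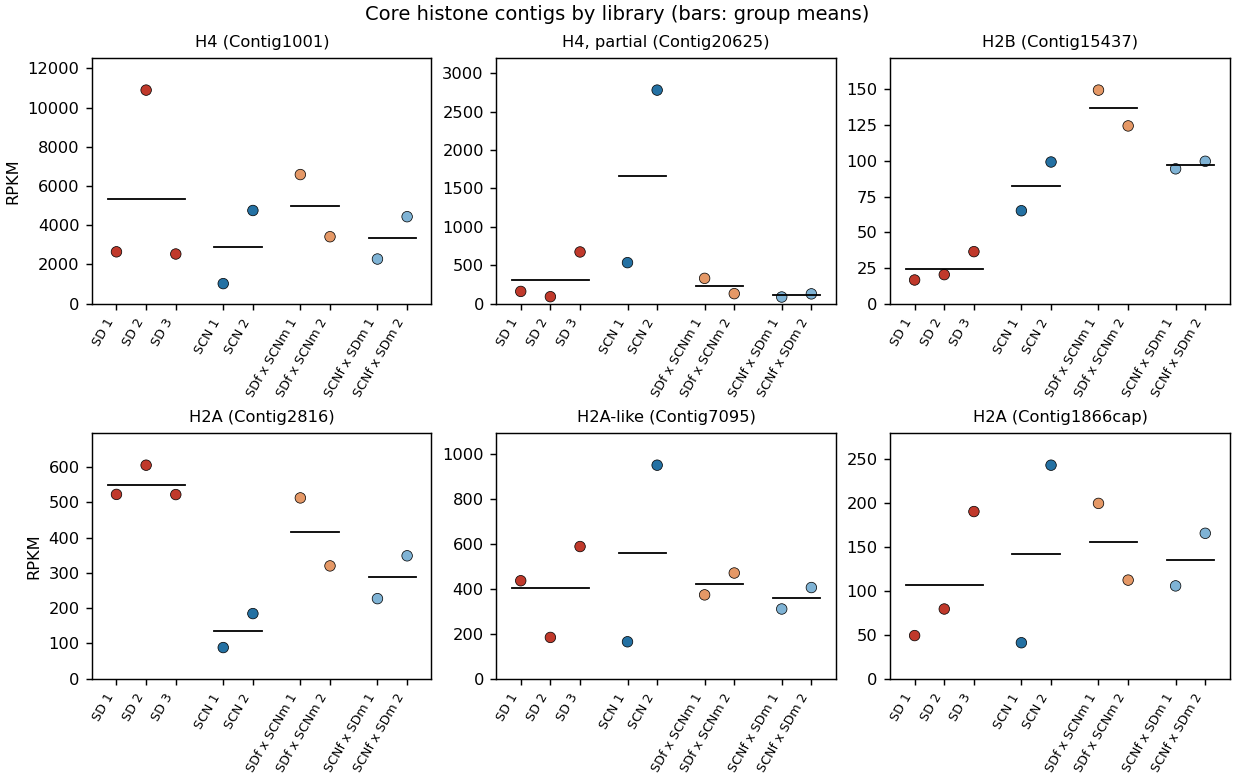
RPKM (y axis, from 0, a separate scale in each panel) of 6 core histone contigs in each of the 9 libraries (x axis), with bars for group means. H2A Contig2816 is low in both SCN libraries (88.2 and 185 RPKM), H2B is low in the 3 SD libraries (16.5 to 36.4 RPKM), and the partial H4 contig is highest in SCN replicate 2.

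Cyclins rise and drop through the cycle and switch on their kinases in turn. Cyclin D acts in G1, cyclin E at the entry to S phase, cyclin A in S phase and G2, and cyclin B in mitosis. The contigs of cyclin D named D3 and D2-like were higher in every hybrid library than in any parental one, as were the summed cuticle and moult markers given above. D2-like (Contig27150) was at 7.45, 4.52 and 4.95 RPKM in SD, 13.9 and 4.48 RPKM in SCN, 24.4 and 18.6 RPKM in SDf x SCNm, and 25.1 and 21.9 RPKM in SCNf x SDm. D3 (Contig12490) was at 8.74, 17.1 and 7.07 RPKM in SD, 13.1 and 2.88 RPKM in SCN, 27.1 and 25.1 RPKM in SDf x SCNm, and 25.2 and 18.5 RPKM in SCNf x SDm. The crosses overlapped in both.

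Against the midparent, D2-like differed by 1.61 ± 0.34 (SE, adjusted p = 0.069) and D3 by 1.44 ± 0.41 (adjusted p = 0.14), both with limma, and the first was the largest positive hybrid difference among the 123 genes. It passed the threshold under pseudocount 5, quantile normalization and median-of-ratios scaling, at adjusted p of 0.044, 0.034 and 0.049. In 16 of its 20 alternatives, voom among them, it did not pass. Another contig, D2 (Contig5455), was also apart, at 16.5 to 23.8 RPKM in hybrids and 5.97 to 14.01 RPKM in parents, with 0.93 ± 0.31. The most abundant D contig (Contig738cap) was not: it had 73.0, 121 and 64.6 RPKM in SD, 45.9 and 30.9 RPKM in SCN and 59.4 to 102 RPKM in hybrids, with SCN lowest. The smallest read counts of Contig27150 and Contig12490 in a library were 1 and 3. The deposited values hold an added constant of 1.12 to 18.4 reads per library, so part of such low levels is that constant. The relation of the D contigs to each other was not tested.

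Cyclin B (Contig1321) was the most abundant of the cyclins and kinases, at 492, 538 and 531 RPKM in SD, 332 and 552 RPKM in SCN, 365 and 400 RPKM in SDf x SCNm, and 339 and 224 RPKM in SCNf x SDm. Cyclin A (Contig1857) was at 61.3, 143 and 73.7 RPKM in SD, 49.2 and 29.0 RPKM in SCN, 52.7 and 89.0 RPKM in SDf x SCNm, and 85.7 and 54.4 RPKM in SCNf x SDm. For cyclin A the SD libraries were apart above SCN (1.17 ± 0.46, adjusted p = 0.24 with limma), while for cyclin B the SD and SCN libraries overlapped. Cyclin E (Contig2961) was at 90.9, 197 and 49.9 RPKM in SD, 69.4 and 42.2 RPKM in SCN, 101 and 133 RPKM in SDf x SCNm, and 111 and 87.9 RPKM in SCNf x SDm. All hybrid libraries lay above both SCN libraries, SD overlapped the other groups, and SD replicate 2 was highest for cyclins A and E. A shorter cyclin B contig (Contig5769) held 43.3 to 91.5 RPKM and cyclin B3 (Contig1909) 45.0 to 105 RPKM, with the populations overlapping in both and the crosses apart in the first. The CDK6-like kinase (Contig58), of the family that cyclin D binds, had 35.4 to 41.0 RPKM in SD, apart above 18.8 and 32.7 RPKM in SCN. Cyclin G (Contig800cap), the second most abundant cyclin, had 68.4 to 237 RPKM, with all groups overlapping.

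CDK1 (Contig3797), the kinase that cyclin B activates, stood at 105, 179 and 188 RPKM in SD, 61.7 and 116 RPKM in SCN, 77.8 and 57.8 RPKM in SDf x SCNm, and 64.0 and 77.0 RPKM in SCNf x SDm. Every parental library except SCN replicate 1 lay above every hybrid library, and SD and SCN overlapped. The hybrid difference was -0.72 ± 0.30 (SE, adjusted p = 0.28 with limma). Contigs named for CDK2 with inhibitor (Contig26714) and CDK inhibitor 3 (Contig37266) were apart below SCN in SD, with differences of -1.07 ± 0.46 and -0.94 ± 0.44. Of the 18 genes in the role, 15 were higher in SD by fitted difference (62.5% of all features) and 6 were apart above SCN, with 2 apart below (19.8% and 9.17% of all features). Under quantile normalization 15 of the 18 were higher in SD, and under median-of-ratios scaling 12.

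**Figure D5:**
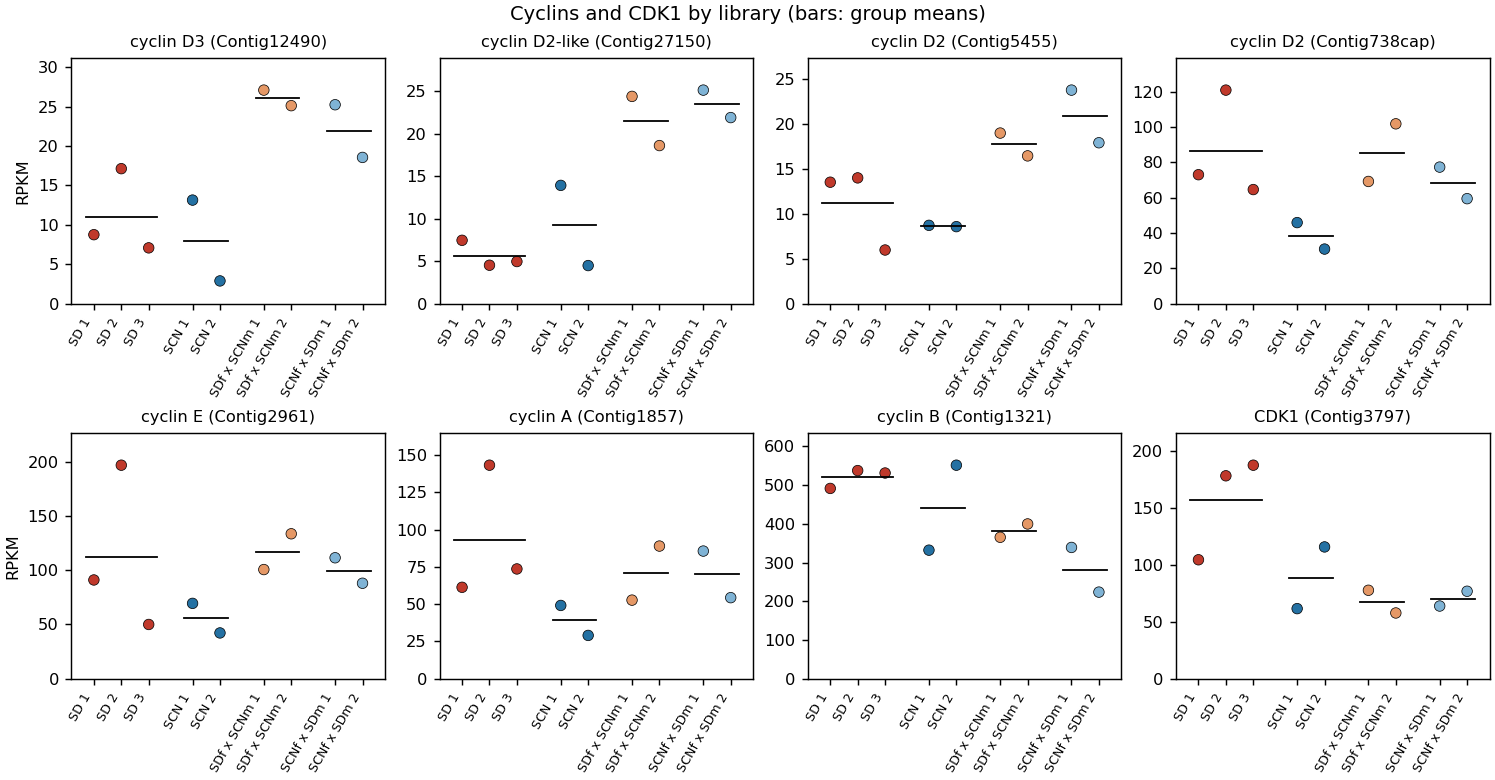
RPKM (y axis, from 0, a separate scale in each panel) of 7 cyclin contigs and CDK1 in each of the 9 libraries (x axis), with bars for group means. All 4 hybrid libraries exceed all 5 parental libraries for cyclin D3, D2-like and D2 (Contig5455), and for CDK1 every parental library except SCN replicate 1 lies above every hybrid library.

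Cyclins and kinases of transcription and other names were mixed. Cyclin L (Contig22792), which binds kinases of RNA splicing, was the 1 gene with every hybrid library below every parental one, at 50.7, 21.9 and 73.5 RPKM in SD, 36.9 and 77.1 RPKM in SCN, 17.9 and 16.4 RPKM in SDf x SCNm, and 15.5 and 12.4 RPKM in SCNf x SDm. The difference was -1.58 ± 0.38 (SE, adjusted p = 0.086 with limma). The gap to the lowest parental library, SD replicate 2, was small, and without that library adjusted p was 0.043. A contig named cyclin L2 (Contig1470cap) had 64.0 to 99.9 RPKM in hybrids and 65.9 to 193 RPKM in parents, overlapping. The CDK10-like contig (Contig5680), of 181 bases, had 31.4 to 38.7 RPKM in hybrids within a parental range of 16.5 to 138 RPKM (hybrids minus midparent -0.60 ± 0.48), and the sign turned to 0.22 without the run 3 libraries. The 2 largest differences toward SCNf x SDm were those of the CDK5 activator 1-like contig (Contig12389, -0.59 ± 0.51) and cyclin-H-like (Contig15476, -0.53 ± 0.60), with the crosses overlapping in both. The CDK-like 4 contig (Contig14792) had 23.6 and 31.2 RPKM in SDf x SCNm, apart below 40.5 and 33.6 RPKM in SCNf x SDm. Of the abundant kinases, Contig350cap had 96.6 to 113 RPKM in SD, apart above 58.5 and 80.4 RPKM in SCN, and the CDK17-like contig (Contig7358) overlapped at 65.2 to 119 RPKM. Cyclin C (Contig14088), a subunit of the Mediator complex, had 87.2 to 93.6 RPKM in hybrids and 55.0 to 86.6 RPKM in parents.

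Cohesin holds sister chromatids together and condensin compacts them. The cohesin subunit SA-1-like contig (Contig4434) had 50.1, 45.2 and 59.8 RPKM in SD, 23.9 and 33.8 RPKM in SCN and 25.2 to 33.0 RPKM in hybrids, so that SD alone was high. The contig named only condensin complex (Contig41394) had 11.3, 12.7 and 12.4 RPKM in SD, 15.02 and 8.804 RPKM in SCN, 23.8 and 24.9 RPKM in SDf x SCNm, and 26.9 and 32.0 RPKM in SCNf x SDm. Every hybrid library was above every parental one, and SCNf x SDm was the higher cross (hybrids minus midparent 1.11 ± 0.26, adjusted p = 0.081 with limma). Condensin subunits 1, 2 and 3 did not share that pattern, with hybrid differences of 0.25, -0.30 and 0.25. In SD minus SCN all 6 genes of the role were above 0, with a median of 0.85 and 4 apart (62.5% and 19.8% of all features).

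The kinetochore genes included CENP-C (Contig9555), which anchors the kinetochore to centromeric chromatin. It stood at 122, 104 and 81.3 RPKM in SD, 49.7 and 143 RPKM in SCN, 54.0 and 45.1 RPKM in SDf x SCNm, and 49.8 and 34.1 RPKM in SCNf x SDm. The SCN libraries were the lowest and the highest parental values, and the hybrids overlapped the lower one (hybrids minus midparent -1.02 ± 0.34, adjusted p = 0.17 with limma). The kinetochore-associated protein 1-like contig (Contig2631) had 24.1, 34.3 and 20.4 RPKM in SD, 17.6 and 3.77 RPKM in SCN and 14.9 to 27.5 RPKM in hybrids, with SD apart above SCN by 1.503 ± 0.555 (SE, adjusted p = 0.22 with limma). The Cdca8-like contig (Contig10826) ranged from 20.9 to 72.4 RPKM, both in SCN. CENP-A, the histone H3 variant that marks the centromere (Contig11799), ranged from 7.57 RPKM in SCN replicate 1 to 73.1 RPKM in SD replicate 2 with populations overlapping. ZW10 (Contig19cap), part of a complex that recruits dynein to the kinetochore, had 59.8, 54.1 and 59.4 RPKM in SD, 24.5 and 29.8 RPKM in SCN, 33.6 and 33.3 RPKM in SDf x SCNm, and 33.5 and 29.3 RPKM in SCNf x SDm. SD was about 2.09-fold higher than SCN on the log2(RPKM + 1) scale (1.07 ± 0.31, adjusted p = 0.15 with limma), and 3 of 4 hybrid libraries lay above both SCN libraries, the other one within the SCN range.

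Gamma-tubulin complexes start microtubules at the spindle poles. Component 5 (Contig8378) had the smallest adjusted p among the genes of the group in the parental comparison. It stood at 64.4, 52.8 and 59.0 RPKM in SD, 21.3 and 8.03 RPKM in SCN, 28.3 and 24.8 RPKM in SDf x SCNm, and 26.7 and 22.6 RPKM in SCNf x SDm. The hybrids lay above SCN and well below SD (SD minus SCN 2.07 ± 0.41, adjusted p = 0.064 with limma, 1.55 within run 1 and 2.73 within run 3). Components 2, 3 and 4 had smaller parental differences of 0.16, 0.39 and 0.71. All 9 genes of the role were above 0 in SD minus SCN, with 5 apart (62.5% and 19.8% of all features). The short spindle protein 4-like contigs Contig1008 and Contig2976cap had 111 to 125 RPKM and 53.8 to 74.4 RPKM in SD, apart above 44.3 to 87.5 RPKM and 17.8 to 41.7 RPKM in SCN. Nucleolar and spindle-associated protein 1 (Contig13695), a microtubule binder of the spindle, had 42.6 to 54.1 RPKM in hybrids and 19.9 to 65.1 RPKM in parents, and SD replicate 2 alone of the parents exceeded the hybrids.

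The checkpoint delays the separation of chromatids until all kinetochores are attached, and the anaphase-promoting complex then destroys cyclin B. The checkpoint kinase of the Bub1 family (Contig4653) had 74.8, 119 and 56.4 RPKM in SD, 33.7 and 18.1 RPKM in SCN, 59.0 and 64.7 RPKM in SDf x SCNm, and 58.3 and 41.3 RPKM in SCNf x SDm. SCN was lowest, with 3 of 4 hybrid libraries within the SD range (1.65 ± 0.42, adjusted p = 0.12 with limma). Cdc23 (Contig6947), a subunit of the anaphase-promoting complex, had 55.4, 47.4 and 64.5 RPKM in SD and 27.0 and 15.5 RPKM in SCN, with 39.2 to 49.3 RPKM in hybrids. Its fellow subunit Cdc27 (Contig1696cap) had 105, 121 and 97.5 RPKM in SD, 46.7 and 62.1 RPKM in SCN, 38.8 and 58.1 RPKM in SDf x SCNm, and 60.01 and 32.2 RPKM in SCNf x SDm. For Cdc23 the hybrids lay above SCN, and for Cdc27 they lay within the SCN range or below it. Both had SD apart above SCN, at 1.39 ± 0.35 and 0.98 ± 0.37. Cdc20 (Contig5612), which activates that complex, had 61.6 and 54.0 RPKM in SDf x SCNm and 39.9 and 40.2 RPKM in SCNf x SDm (0.51 ± 0.36, adjusted p = 1.00 with limma), and Bub3 (Contig11992), a checkpoint protein, had 44.7 to 71.8 RPKM over all libraries. In both the crosses were apart and the populations overlapped. Between the crosses 9 of 9 genes of the role were above 0 and 7 were apart (56.7% and 16.3% of all features).

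A further 97 features carried names of the same pathway that the word rule does not take, such as PCNA, aurora and polo kinases, and SMC proteins. Some matched by letters alone, such as the ubiquitin-like conjugating enzyme ube2f and transport kinesins. Limma called 0 of these in all 3 comparisons. Unadjusted p was below 0.05 for 31 higher and 1 lower of the 97 in SD (12.3% and 5.25% of all features), for 2 higher and 3 lower in hybrids (13.1% and 3.4%), and for 0 between the crosses (0.283%). The median for SD minus SCN was 0.67, beside 0.23 over all features. The aurora-related kinase (Contig7700), which acts in mitosis, had 72.3, 84.7 and 96.5 RPKM in SD, 47.7 and 34.2 RPKM in SCN, 68.9 and 53.6 RPKM in SDf x SCNm, and 40.2 and 48.1 RPKM in SCNf x SDm. PCNA (Contig1058cap), the sliding clamp of the polymerases, had 66.5 to 131 RPKM in SD and 65.6 and 140 RPKM in SCN. SD was apart above SCN for the aurora kinase, and the populations overlapped for PCNA.

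The reverse transcriptase names, the group that shares only the words DNA polymerase with the rest, had a median SD minus SCN difference of -0.06 over 8 contigs, with 0 apart in either direction. Between the crosses their median was 0.26, beside 0.22 over all 123 genes. There 7 of the 8 were above 0 and 2 were apart above (56.7% and 16.3% of all features). Their levels were low apart from Contig2803cap and Contig1179cap, and 3 of the 8 held the only values at 0 reads among the 123 genes. The highest, Contig2803cap, had 86.8, 43.1 and 95.4 RPKM in SD and 141 and 88.5 RPKM in SCN, with the populations overlapping. Contig1179cap and Contig125612, the next 2, also overlapped, at 24.6 to 76.9 RPKM and 8.08 to 17.0 RPKM. The 8 names that belong elsewhere had a median SD minus SCN difference of 0.63, beside 0.60 over the 107 genes of the other roles. Of these 8, 4 were apart above SCN and 1 below. Among the names that belong elsewhere, the Cdc5-like splicing factor (Contig7992) had 98.1 to 129 RPKM in SD against 49.7 and 51.0 RPKM in SCN, with 75.9 to 89.7 RPKM in hybrids between them. Spindle-E (Contig6422) and an apoptosis regulator (Contig7003) were also apart, at 59.4 to 65.7 RPKM and 54.6 to 62.8 RPKM in SD and at most 50.4 and 54.1 RPKM in SCN. The MCM3-associated protein (Contig9123) overlapped between the populations, at 14.5 to 20.4 RPKM in SD and 18.8 and 48.6 RPKM in SCN.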

How the data were processed

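The deposited values are RPKM per contig, per the file headers, for 9 libraries of polyA RNA. Aligner, counting method and handling of reads that match several contigs: not given in the sources used here, which name neither. Groups follow the titles. Low values fall on even steps, from which whole reads were recovered for 13730 of 13758 features (tolerance 0.05 read), with an added constant of 1.12 to 18.4 reads per library. The constant is part of every level given here and weighs most where reads are few. These reads gave depths and 2 alternatives only.

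Differences were tested with limma 3.58.1 in R 4.3.3, taking log2(RPKM + 1) of all 9 libraries, 4 group means, a trend of variance on mean and Benjamini-Hochberg adjustment over 13758 features (threshold 0.05). The scale understates changes of low genes. A filter at a mean of 1 RPKM removed 0 features. The fit was tested on simulated data, where it found few moderate changes between the populations or the crosses and more of them against the midparent. The read recovery was exact on reads simulated from the recovered reads and lengths, but an earlier simulation with generic abundances recovered few features, so it rests on the low-count structure of these files. Replicates differed by more than sampling noise (chi-square per feature 14.6 to 75.3).

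Members, roles and gene lists were chosen with earlier results of these data known. Genes named were those past the threshold, the 6 largest differences each way in a comparison, the 3 highest in each role, and all core histones, MCM2-7, cyclins A, B, D and E and CDK 1, 2, 4 and 6. Others were named after their values were seen, such as Contig14088, Contig13695, Contig11795, condensin subunit 1, gamma-tubulin components 3 and 4, aurora and PCNA. No identifier matched the Tcal_SD_v2.1 gene table, so neither sequences nor coordinates are given. Python 3.11.15 and matplotlib 3.10.9 drew the plots.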

Additional observations from a re-analysis of the deposited data

Results flagged for a closer look

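In the 4 hybrid libraries, ZW10 (Contig19cap) had 1 library far from the others: SCNf x SDm replicate 2 was at 29.3 RPKM and the other 3 lay between 33.3 and 33.6 RPKM. The gap was 0.919 of the whole range, above the 95% limit of 0.829 for 4 samples. The spread is small in absolute terms. Chance alone flags about 1 in 20 such groups, and 70 genes were examined.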

How the results depend on the processing

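Over 22 alternatives (20 for hybrids against midparent), members called moved from 0 as follows. For SD against SCN, quantile normalization gave 2, and leaving out 1 library gave 0 to 32. For hybrids against midparent, pseudocount 5 gave 2, quantile normalization 3, median-of-ratios scaling 1, voom 1, leaving out both run 3 libraries 1, and leaving out 1 library 0 to 17. The crosses gave 0 in each alternative. The SD against SCN median became 0.31 under both scalings and 0.44 to 0.60 without 1 library. The hybrid median became -0.15 under median-of-ratios scaling. With the replicate block, 0 members were called in each comparison, and medians were 0.60, -0.03 and 0.22. The difference of replicate 1 minus replicate 2 correlated between groups at -0.55 to 0.36. With a single such difference per group, this cannot decide whether the numbers pair samples.

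Chosen after seeing the data: the member median minus that of all features (0.36 for SD against SCN) was 0.59 without run 3 and -0.064 to 0.53 without 1 library, and for hybrids (-0.14) -0.33 to -0.050. Members apart for SD against SCN were 86 higher and 16 lower without run 3 (38.4% and 40.3% of all features), 78 and 13 without SCN replicate 2 (30.3% and 32.1%) and 71 and 23 without SCN replicate 1 (54% and 22%), with ranges of 53 to 78 and 6 to 23 without 1 library. For hybrids they were 10 higher and 5 lower without run 3 (8.87% and 5%), and 1 to 16 lower without 1 library (5.04% of all features for the 16, without SCN replicate 1). For the crosses they were 65 to 86 higher and 9 to 19 lower, with 86 (39.6% of all features) without SCNf x SDm replicate 1 and 19 (34.5%) without its replicate 2. Fewer libraries overlap less by construction.

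Signs reversed for mcm6 and mcm5 without SCN replicate 1 (ranges over left-out libraries -0.23 to 0.88 and -0.24 to 0.38), for mcm5 without SD replicate 1 (-0.0066), under quantile normalization (-0.10) and median-of-ratios scaling (-0.21), for CDK10-like (Contig5680, hybrids, 0.22) without run 3, and between crosses for cyclin-H-like (Contig15476) without SDf x SCNm replicate 1 (range -1.34 to 0.28) or with run as a block (0.28), and for Contig9809 without SDf x SCNm replicate 2 (range -0.49 to 0.043). The cause was not tested. Depth limits SD replicate 3 and SCN replicate 2.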
